A study of Homo sapiens with 12 samples.

Results

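RUNX1, RUNX2 and RUNX3 encode the DNA-binding subunits of core binding factor, and CBFB encodes the subunit they share. These 4 genes were taken by symbol from 56832 gene symbols counted by RNA sequencing in cells labelled SW1736, an established human line of anaplastic thyroid carcinoma. Each RUNX protein binds DNA through its Runt domain, and CBFB, which does not touch DNA itself, strengthens that binding and protects the RUNX protein from degradation. RUNX1 is best known as a regulator of blood cell formation, RUNX2 as the factor that osteoblasts need to form bone, and RUNX3 for roles in T cells, sensory neurons and gastric epithelium. RUNX2 is also studied in thyroid and other carcinomas for its part in invasion. In GENCODE 29 (GRCh38) RUNX1 (ENSG00000159216) spans chr21:34787801-36004667 on the minus strand and RUNX2 (ENSG00000124813) spans chr6:45328157-45664349 on the plus strand. RUNX3 (ENSG00000020633) spans chr1:24899511-24965121 on the minus strand and CBFB (ENSG00000067955) spans chr16:67029116-67101058 on the plus strand.

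The cells carried the vector pCDH with thyroid hormone receptor beta (pCDH-TRB, here TRB cells) or without an insert (pCDH-EV, here EV cells). All were starved of hormone for 24 h in phenol red-free medium with charcoal-stripped serum and then received 10 nM triiodothyronine (T3, the active thyroid hormone) or its NaOH vehicle for 24 h. Each vector and treatment together form a group of 3 libraries, 4 groups in all. The receptor was supplied by the vector, whose transcripts are not told apart here from those of the endogenous gene. Every group is of 1 cell line, and the labels do not say how many clones each vector line holds.

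Thyroid hormone receptors bind DNA as dimers on pairs of a hexamer whose classical form is AGGTCA, and RUNX proteins bind TGTGGT and TGCGGT. RUNX2 is transcribed from a distal promoter, P1, and a proximal promoter, P2, and so is RUNX1. Because RUNX2 and RUNX1 are the members whose levels changed, the windows held for them in a RefSeq promoter table (GRCh38.p14) are printed here, with a distal and a proximal one for RUNX2 and only a downstream one for RUNX1, 250 bases before to 50 bases after the start site, 5′ to 3′ on the gene's strand. Capitals mark these 3 hexamers on either strand, so that ACCACA marks a RUNX hexamer read on the opposite strand.
RUNX2 distal, chr6:45328080-45328379, plus strand: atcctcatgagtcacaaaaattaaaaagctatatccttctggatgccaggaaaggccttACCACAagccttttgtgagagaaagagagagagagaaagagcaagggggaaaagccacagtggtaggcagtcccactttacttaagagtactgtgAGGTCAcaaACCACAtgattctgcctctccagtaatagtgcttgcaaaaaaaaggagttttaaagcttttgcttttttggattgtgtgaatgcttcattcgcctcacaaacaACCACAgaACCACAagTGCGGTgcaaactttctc
RUNX2 proximal, chr6:45422025-45422324, plus strand: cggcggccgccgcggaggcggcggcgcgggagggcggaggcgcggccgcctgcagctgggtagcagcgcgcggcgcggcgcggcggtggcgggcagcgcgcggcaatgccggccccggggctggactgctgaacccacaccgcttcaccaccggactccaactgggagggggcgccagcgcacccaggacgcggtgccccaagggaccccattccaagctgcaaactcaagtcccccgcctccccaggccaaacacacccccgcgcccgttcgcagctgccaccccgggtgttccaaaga
RUNX1 downstream, chr21:34888650-34888949, minus strand: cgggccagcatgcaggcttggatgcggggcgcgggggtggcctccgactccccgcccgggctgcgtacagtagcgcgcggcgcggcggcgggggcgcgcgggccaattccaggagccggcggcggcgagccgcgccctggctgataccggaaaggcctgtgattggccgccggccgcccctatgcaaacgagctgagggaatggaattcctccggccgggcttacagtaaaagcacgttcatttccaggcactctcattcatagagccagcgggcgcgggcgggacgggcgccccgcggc
The distal RUNX2 window holds 1 AGGTCA, whose leftmost base lies at -96 from the start site, and 5 RUNX hexamers at -191, -87, 17, 25 and 33. Among 35116 windows in the same table, 13.8% hold an AGGTCA and 19.6% hold at least 1 RUNX hexamer, while 4 windows (0.0114%) hold 5 or more. The proximal RUNX2 window and the downstream RUNX1 window hold none of these hexamers, and their GC content is 76.0% and 72.0% against 42.7% in the distal RUNX2 window. Of the other members, the upstream window of RUNX3 (chr1:24964961-24965260, minus strand) holds 2 RUNX hexamers at -131 and -123, its second window (chr1:24930227-24930526) holds none, and CBFB and the upstream RUNX1 start had no entry. A match of letters is a description of the sequence, and no binding was measured here.

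Counts in genes ran from 3819306 to 13086717 per library, and 17833 to 22881 genes had a count. Lines for reads assigned to no gene held 44.82% to 94.35% of what was counted in a library. THRB, the gene of the supplied receptor, stood at 14.6 ± 1.39 CPM (counts scaled to a library of 1000000; SD, n = 3) in EV cells with vehicle and 14.9 ± 3.04 in EV cells with T3. It stood at 80.1 ± 0.314 in TRB cells with vehicle and 269.6 ± 69.8 in TRB cells with T3, so that every TRB library lay above every EV library. THRB itself thus rose with T3 in TRB cells (log2 fold change 1.75, adjusted p = 0.000434 in edgeR's quasi-likelihood test), against 0.03 in EV cells. The T3 comparison in TRB cells and the interactions therefore also set unequal THRB transcript levels side by side. Replicate 2 of TRB cells with T3 stood apart: its log2 difference from replicates 1 and 3 followed gene GC content with a Spearman correlation of -0.9 across 12136 genes, which are not independent replicates. The biological coefficient of variation was 0.617 in that group with it and 0.0577 without it, so tests below are given for all 12 libraries and for the 11 without it. RUNX1 and RUNX2 have a GC content of 48.6% and 48.1% in exons, where the median gene of like GC differed in that library by 0.03 and 0.16 on the log2 scale. At CBFB's 42.2% the median difference was 1.12. Nothing in the labels says that replicates were separate cultures, so p-values measure the spread between these libraries, which may be technical.

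Of 7 thyroid follicular markers, TSHR and FOXE1 had no counts, TG and SLC5A5 stayed under 1 CPM, and the best detected, PAX8, ranged from 0.72 to 6.98 CPM. The summed level of the 7 was 6.48 to 10.9 CPM in the other 3 groups and 1.08 to 5.25 in TRB cells with T3, a difference whose part in the results below was not tested. Most epithelial markers were abundant, with KRT8 at 386.0 to 2208.1 CPM, EPCAM at 317.1 to 1100.4 and CDH1 at 134.5 to 241.8. The epithelial marker KRT7 was low, with group means from 3.38 CPM in EV cells with vehicle to 7.67 in TRB cells with T3. Of the mesenchymal markers VIM reached at most 1.51 CPM and CDH2 had no counts. FN1, the fibronectin gene, averaged 14.7 CPM in EV cells with vehicle and 70.7 with T3, and 9.57 and 241.6 in TRB cells, the order seen in RUNX2 below. RUNX factors mark blood and bone cells, so markers of those were read too. The leukocyte marker PTPRC reached at most 0.217 CPM, CD3E had no counts, and LYZ stood at 778.2 to 1588.6 CPM in all groups. CD14 averaged 0.423 and 1.38 CPM in EV cells with vehicle and T3, and 0.39 and 6.38 in TRB cells, and the part of these markers in the results was not tested. Of the 4 osteoblast markers, IBSP had no counts, SP7 and BGLAP stayed under 1 CPM, and SPP1 ran from 1.06 to 8.27 CPM. The 3 endothelial markers summed to at most 0.317 CPM. Thyroid markers, KRT7 and the mesenchymal markers VIM and CDH2 were thus low or absent, while KRT8, EPCAM, CDH1 and LYZ were high. FN1 was the mesenchymal marker that was not low, above all with T3. The identity of the line was not tested. In bulk RNA, fewer expressing cells and less RNA per cell cannot be told apart.

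RUNX2 was the member with the largest response, and T3 raised it about an order of magnitude in TRB cells. Its level in TRB cells with vehicle was 9.96, 9.13 and 10.7 CPM in replicates 1 to 3. In TRB cells with T3 it was 102.7, 143.0 and 96.2 CPM. The highest of the 3 was the library that stood apart, and the groups were far from overlapping. RUNX2 was 11.4-fold higher with T3, a log2 fold change of 3.52 (SE 0.229, 95% interval 3.01 to 4.02, adjusted p = 6.7e-06 in edgeR's quasi-likelihood test). Without replicate 2 it was 10.3-fold higher (log2 fold change 3.37, SE 0.161, adjusted p = 1.04e-08). In this comparison 14.7% of 14431 tested genes passed the threshold of 0.05 after Benjamini-Hochberg adjustment, and 33.3% of 14825 without replicate 2. By direction, 8.54% of genes were higher and 6.2% lower with 12 libraries, and 18.1% and 15.2% with 11. Of the 4 members, 3 passed the filter on low counts, and in both fits 1 was called higher (RUNX2) and 1 lower (RUNX1).

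**Figure D1:**
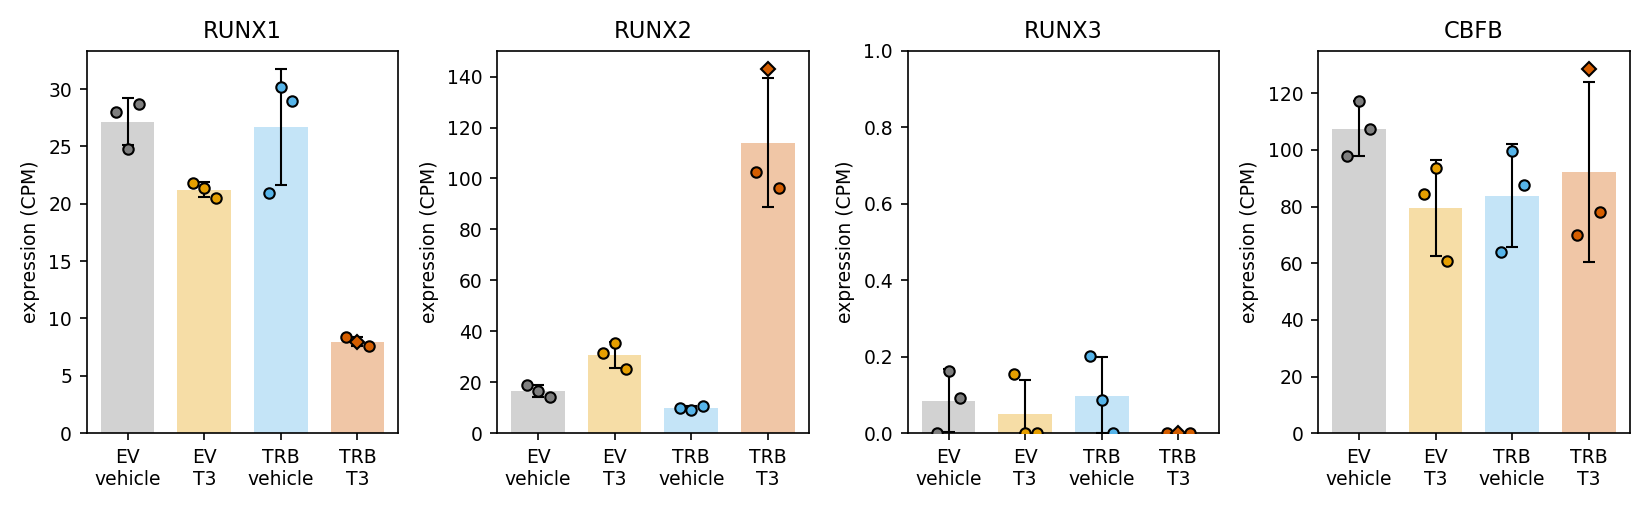
Expression of the 4 genes (CPM, linear axes from 0, a separate scale for each gene) in the 4 groups. Points are libraries, the diamond is TRB cells with T3 replicate 2, bars are means and error bars SD (n = 3). RUNX2 rises to 96.2 to 143.0 CPM and RUNX1 falls to 7.62 to 8.41 CPM in TRB cells with T3, RUNX3 stays under 0.3 CPM and the CBFB groups spread widely.

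In EV cells RUNX2 was at 18.9, 16.7 and 14.3 CPM with vehicle. It was at 31.3, 35.5 and 25.3 CPM with T3. All libraries with T3 lay above all with vehicle, yet with 12 libraries the 1.85-fold difference did not pass (log2 fold change 0.89, SE 0.212, 95% interval 0.42 to 1.36, adjusted p = 0.186). It passed without replicate 2 of TRB cells with T3, at 1.9-fold (log2 fold change 0.92, SE 0.152, adjusted p = 0.0041), where the libraries compared are the same and the pooled biological coefficient of variation is 0.131 in place of 0.329. In EV cells with T3 alone that coefficient was 0.218. The share of genes called in this comparison was 0.229% with 12 libraries and 7.33% with 11.

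The response of RUNX2 to T3 differed between the vector lines. The interaction, which is the difference between the 2 T3 responses, was 2.62 on the log2 scale, or 6.17-fold (SE 0.302, 95% interval 1.96 to 3.29, adjusted p = 0.00206). It was 2.44 without replicate 2 (adjusted p = 2.52e-05). The share of genes called for this term was 2.59% with 12 libraries and 15.2% with 11.

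Without added hormone the receptor vector went with a lower RUNX2 value, 9.95 ± 0.805 CPM against 16.6 ± 2.28 in EV cells (SD, n = 3 each). The groups did not overlap, but the log2 difference of -0.74 (SE 0.213, 95% interval -1.21 to -0.27) did not pass, with an unadjusted p of 0.00562 and an adjusted p of 1.0 in edgeR. In this comparison 0.0208% of genes passed, and 0.0742% with 11 libraries, where RUNX2 had an adjusted p of 0.185. With T3 in both lines the direction was the opposite: RUNX2 was 3.7-fold higher in TRB than in EV cells (log2 difference 1.89, SE 0.215, adjusted p = 0.000605), and 3.33-fold higher without replicate 2 (adjusted p = 6.71e-06). In that comparison 6.68% of genes passed with 12 libraries and 19.7% with 11. From high to low, the order of RUNX2 was TRB T3, EV T3, EV vehicle and TRB vehicle, and no neighbours in it overlapped.

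RUNX1 moved the opposite way, and its fall was seen in TRB cells. It was at 20.9, 30.2 and 29.0 CPM in TRB cells with vehicle. With T3 it was at 8.41, 7.92 and 7.62 CPM, a close set in which the library that stood apart lay between the other two. RUNX1 fell 3.34-fold (log2 fold change -1.74, SE 0.185, 95% interval -2.15 to -1.33, adjusted p = 0.000147 in edgeR), and 3.21-fold without replicate 2 (log2 fold change -1.68, SE 0.179, adjusted p = 1.31e-05). The counts behind the low group were 112, 44 and 61.

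In EV cells RUNX1 was at 28.0, 24.8 and 28.7 CPM with vehicle. With T3 it was at 21.8, 21.4 and 20.5 CPM. The libraries with T3 were the lower ones and the groups did not overlap, but the log2 difference of -0.35 (SE 0.179, 95% interval -0.75 to 0.04) had an adjusted p of 0.881, and of 0.158 without replicate 2 of TRB cells with T3. The interaction for RUNX1 was -1.39 (SE 0.256, 95% interval -1.95 to -0.82, adjusted p = 0.0192), and -1.34 with 11 libraries (adjusted p = 0.00238). With 12 libraries this call rested on single libraries: leaving out EV vehicle replicate 2 or 3, EV T3 replicate 1, or TRB vehicle replicate 2 or 3 gave adjusted p between 0.0548 and 0.0696 at values of -1.45 to -1.32.

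With vehicle RUNX1 was at 27.2 ± 2.05 CPM in EV and 26.7 ± 5.04 CPM in TRB cells with vehicle, with a 95% interval of -0.42 to 0.37 for the log2 difference (adjusted p = 1.0, and 0.994 with 11 libraries). With T3 in both lines RUNX1 was 2.66-fold lower in TRB than in EV cells (log2 difference -1.41, SE 0.186, adjusted p = 0.00145), and 2.53-fold lower without replicate 2 (adjusted p = 0.00024). When only the 6 libraries compared were fitted, the adjusted p of this difference was 0.0915, and that of RUNX2 was 0.0634. The order of RUNX1 from high to low was EV with vehicle, TRB with vehicle, EV with T3 and TRB with T3. TRB with vehicle overlapped both of its neighbours, and TRB with T3 overlapped none.

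**Figure D2:**
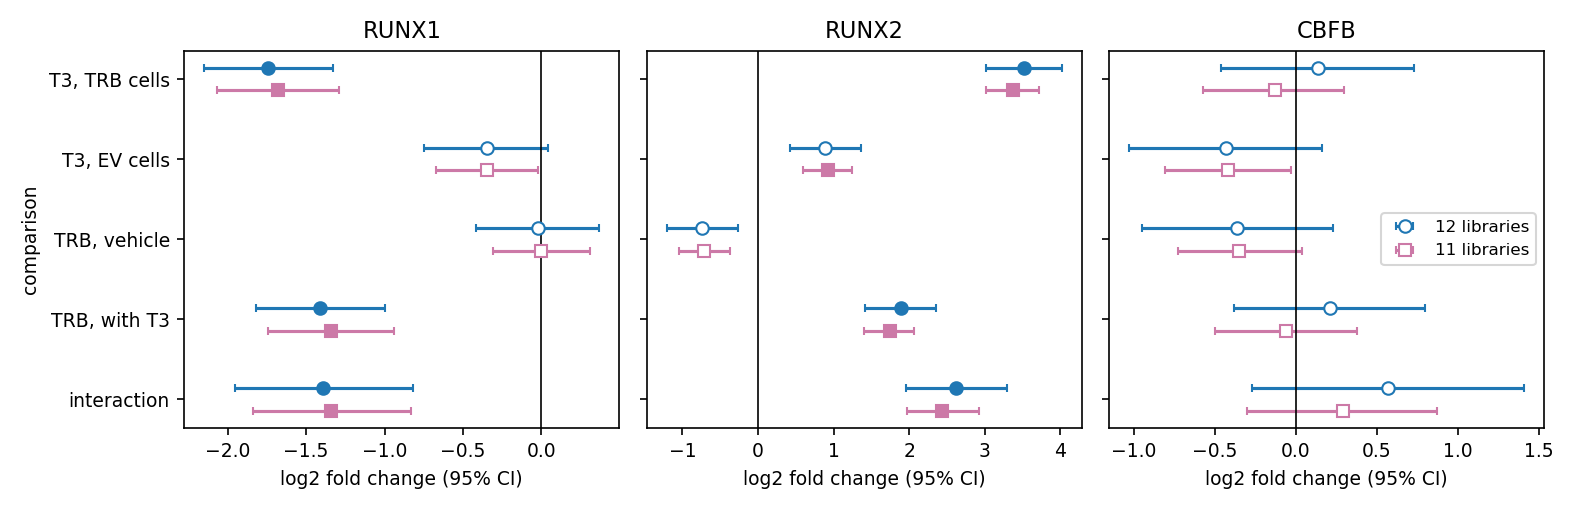
Log2 fold changes of RUNX1, RUNX2 and CBFB in the 5 comparisons (horizontal axis, with a separate scale for each gene), with 95% confidence intervals from edgeR. Circles are fits of 12 libraries, squares fits of 11 libraries, and filled symbols passed an adjusted p of 0.05. RUNX2 and RUNX1 lie on opposite sides of 0 for T3 in TRB cells (3.52 and -1.74), while the intervals of CBFB in TRB cells include 0.

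RUNX3 was barely detected, with 7 counts in 12 libraries. EV cells held 0, 2 and 1 counts with vehicle and 1, 0 and 0 with T3, and TRB cells held 2, 1 and 0 with vehicle. TRB cells with T3 held 0 in all 3 libraries, and a count of 0 allows up to 3 counts, or 0.225 to 0.54 CPM in that group (counting error only). No library exceeded 3 counts, so no fold is given, and a difference between groups was not detectable at this depth. RUNX3 did not pass the filter on low counts. In a fit of all 30412 genes with any count, its adjusted p lay between 0.425 and 1.0 in the 5 comparisons.

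CBFB, the shared partner, had the highest level per length of the members in every group, as given below, and passed in none of the 5 comparisons in edgeR or DESeq2, and with 12 libraries all of its 95% intervals include 0. It stood at 97.9, 117.4 and 107.3 CPM in EV cells with vehicle. After T3 the same cells had 84.3, 93.7 and 60.7 CPM, all lower than with vehicle. TRB cells had 63.9, 99.6 and 87.8 CPM with vehicle, and with T3 they had 69.9, 128.6 and 78.1 CPM. The value of 128.6 belongs to the library that stood apart, and without it that group averaged 74.0 ± 5.75 CPM (SD, n = 2).

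For T3 in TRB cells the log2 fold change of CBFB was 0.14 (SE 0.268, 95% interval -0.46 to 0.73, adjusted p = 0.745), and -0.13 without replicate 2 (95% interval -0.57 to 0.3, adjusted p = 0.657). In EV cells the log2 fold change was -0.43 (SE 0.269, adjusted p = 0.935). With 11 libraries it was -0.42, with a 95% interval of -0.81 to -0.03 that excludes 0 (adjusted p = 0.153). The receptor vector gave -0.36 with vehicle (adjusted p = 1.0), and -0.35 with 11 libraries (adjusted p = 0.404). With T3 it gave 0.21 (adjusted p = 0.603), which turned to -0.06 with 11 libraries (adjusted p = 0.881). The interaction was 0.57 (95% interval -0.27 to 1.41, adjusted p = 0.373), and 0.29 with 11 libraries (95% interval -0.3 to 0.87, adjusted p = 0.506). The order of the group means was EV with vehicle, TRB with T3, TRB with vehicle and EV with T3, and each group overlapped its neighbours. TRB with T3 held that rank through replicate 2, without which its mean was the lowest of the 4 and its libraries did not overlap EV with vehicle.

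Because RUNX1 and RUNX2 moved in opposite directions within the same libraries, their ratio changed more than either gene. RUNX2 gave 0.674, 0.671 and 0.5 counts per RUNX1 count in EV cells with vehicle. It gave 1.44, 1.66 and 1.23 in EV cells with T3. In TRB cells it gave 0.476, 0.302 and 0.371 with vehicle, and 12.2, 18.1 and 12.6 with T3. No 2 groups overlapped, and the library that stood apart was the highest. The mean log2 ratio was -0.72 ± 0.25 in EV cells with vehicle, -1.41 ± 0.33 in TRB cells with vehicle, 0.52 ± 0.22 in EV cells with T3 and 3.82 ± 0.32 in TRB cells with it (SD, n = 3 each). The ratio was formed from genes already tested above, and is given without a test of its own.

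**Figure D3:**
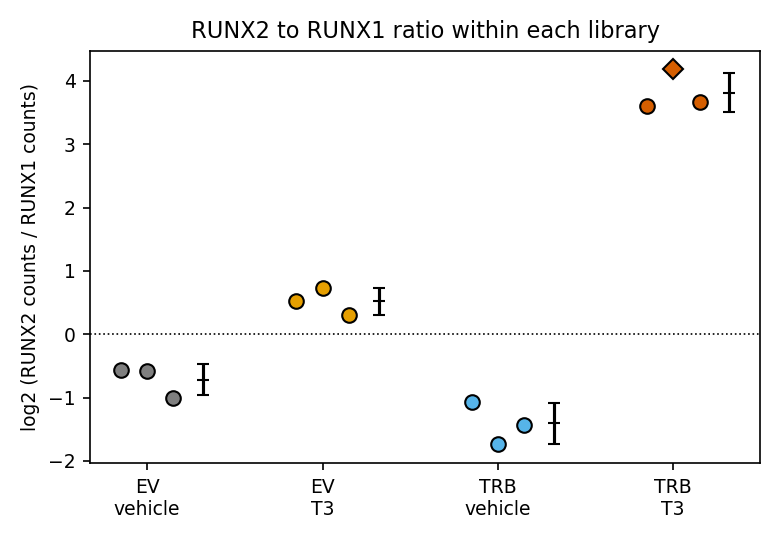
Log2 ratio of RUNX2 to RUNX1 counts within each library (vertical axis) in the 4 groups. Points are libraries, the diamond is TRB cells with T3 replicate 2, and the bars beside them are mean and SD (n = 3). The dotted line marks equal counts; vehicle libraries lie below it and libraries with T3 above it, at 3.61 to 4.18 in TRB cells.

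Levels of different genes can be compared only per length, here CPM per kb of all exons in the GENCODE 29 gene model (15.57 kb for RUNX1, 8.19 kb for RUNX2, 4.52 kb for RUNX3 and 4.13 kb for CBFB). On that scale CBFB stood at 26.1 ± 2.36 in EV cells with vehicle, against 2.03 ± 0.278 for RUNX2 and 1.75 ± 0.131 for RUNX1. RUNX2 made up 53.4% ± 4.26 of the summed RUNX level there and 72.9% ± 2.9 after T3, and in TRB cells 41.4% ± 5.25 with vehicle and 96.4% ± 0.723 after T3 (SD, n = 3 each). The RUNX1 model reaches 955.4 kb beyond the gene's RefSeq start, which lengthens its exons. With the longest coding transcript as length (7.27 kb for RUNX1 and 5.7 kb for RUNX2), the shares were 43.7%, 64.5%, 32.4% and 94.7%, so that in EV cells with vehicle the order of RUNX1 and RUNX2 depends on the gene model.

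The summed RUNX level per kb was 0.147 ± 0.0231 of the CBFB level in EV cells with vehicle and 0.148 ± 0.02 in TRB cells with vehicle. It was 0.27 ± 0.0256 in EV cells with T3 and 0.665 ± 0.0988 in TRB cells with T3. In all 12 libraries CBFB transcripts per length were above those of the 3 RUNX genes together, and the nearest to parity was replicate 1 of TRB cells with T3, at 0.772. With the longest coding transcripts as lengths the last mean was 0.739. Transcript levels say nothing of protein amounts.

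Genes that act with RUNX proteins were read from 5 lists of 110 genes, drawn from textbook roles with earlier results of these data known, of which 69 passed the filter on low counts. For T3 in TRB cells 11 of the 69 were higher and 8 lower with 12 libraries, against 14.7% of all tested genes in either direction. Without replicate 2, 19 were higher and 14 lower, against 33.3% of all tested genes. The higher ones include MMP13 and PHEX, which passed the filter only through TRB cells with T3. These shares of 14.7% and 33.3% belong beside each count below for T3 in TRB cells, with 12 libraries and without replicate 2. For T3 in EV cells edgeR called 0 of the 69 with 12 libraries, with 5 at an unadjusted p under 0.05, where 0.229% of all genes passed. DESeq2 called 1 of the 69, and 172 of the 14431 genes that passed the filter. With 11 libraries edgeR called 3 higher and 6 lower, where 7.33% of all genes passed. For the vector without hormone edgeR and DESeq2 each called 0, with 2 at an unadjusted p under 0.05 in edgeR, where 0.0208% of all genes passed in edgeR. With 11 libraries edgeR also called 0, with 12 at an unadjusted p under 0.05, where 0.0742% of all genes passed.

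Corepressors recruit histone deacetylases to RUNX-bound genes. Of 16 tested corepressors, 2 were higher and 1 lower in TRB cells with T3, with a median log2 fold change of -0.09 against 0.01 over all tested genes. Without replicate 2 the count was 5 higher and 1 lower, with 33.3% of all genes called. TLE3, a Groucho-family corepressor, rose from 56.5 ± 2.52 to 175.5 ± 94.3 CPM (log2 fold change 1.64, SE 0.373, adjusted p = 0.0136). Its T3 libraries were at 220.0, 67.1 and 239.3 CPM, the lowest being the library that stood apart, and without it the log2 fold change was 2.07 (SE 0.124, adjusted p = 8.22e-08). Its relative TLE1 fell from 55.9 ± 1.32 to 28.1 ± 1.93 CPM (log2 fold change -0.99, SE 0.185, adjusted p = 0.00463), and had -0.9 without replicate 2 (adjusted p = 0.000762). HES1, a Notch target that binds RUNX proteins, rose from 30.6 ± 3.76 to 58.5 ± 16.1 CPM (log2 fold change 0.93, adjusted p = 0.0119), and had 0.74 without replicate 2 (adjusted p = 0.000659). The fusion partner RUNX1T1, known from leukaemia, had no counts in any library.

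Of 17 coactivators and DNA-binding partners, 2 were higher and none lower, with a median of 0.3. They were KAT6A, a histone acetyltransferase that binds RUNX1 and RUNX2 (75.3 ± 2.75 to 123.7 ± 35.6 CPM, log2 fold change 0.72, adjusted p = 0.0412), and SMAD3, which carries TGF-beta signals to the nucleus (210.1 ± 4.88 to 319.9 ± 54.0 CPM, 0.61, adjusted p = 0.0195). Without replicate 2 their log2 fold changes were 0.51 (adjusted p = 0.0102) and 0.79 (adjusted p = 1.4e-05), and the count was 5 higher and 2 lower, with 33.3% of all genes called. The additional genes included the acetyltransferases EP300 (log2 fold change 0.48) and CREBBP (0.53), ETS1 (-1.34) and CEBPA (-0.93). They lie outside the rule for named genes and were chosen after their values were seen.

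Of 16 genes that degrade or inhibit RUNX proteins, 4 were higher and 1 lower, with a median of 0.35. HIPK2, a kinase that phosphorylates RUNX1, rose from 181.7 ± 8.87 to 453.6 ± 65.8 CPM (log2 fold change 1.32, SE 0.159, adjusted p = 0.000309), and had 1.45 without replicate 2 (adjusted p = 2.51e-06). Its T3 response differed between the lines by 0.96 on the log2 scale (adjusted p = 0.0499), and by 1.08 without replicate 2 (adjusted p = 0.00141). WWP1, a ubiquitin ligase of RUNX2, was at 115.1 ± 8.09 and 261.2 ± 158.1 CPM (log2 fold change 1.18, adjusted p = 0.045), which became 0.61 without replicate 2 (adjusted p = 0.0137). CDK6, which blocks RUNX1 and RUNX2 function, fell from 144.1 ± 20.8 to 73.2 ± 32.6 CPM (log2 fold change -0.98, adjusted p = 0.0473), and by 1.36 on the log2 scale without replicate 2 (adjusted p = 0.000156). In EV cells CDK6 was at 144.0 ± 9.7 CPM with vehicle and 81.5 ± 20.3 with T3 (log2 fold change -0.82, adjusted p = 0.605). That difference passed with 11 libraries (-0.8, adjusted p = 0.016). The CDK6 interaction was -0.16 (adjusted p = 0.803), and -0.56 with 11 libraries (adjusted p = 0.158). CCND1, the cyclin that with its kinase marks RUNX2 for degradation, and MSX2, a homeodomain repressor, were also higher in TRB cells with T3 (log2 fold changes 0.77 and 0.86, adjusted p = 0.00604 and 0.0107). They had 0.68 and 0.88 without replicate 2 (adjusted p = 0.000235 and 0.00189), and were named after their values were seen. Without replicate 2 the list had 4 higher and 2 lower genes.

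The RUNX2 targets that passed went in both directions. Of 24 targets, mostly described in bone and cartilage, 12 passed the filter. In TRB cells with T3, 3 were higher and 4 lower, with a median of -0.09, where 14.7% of all tested genes were called. Without replicate 2 it was 3 higher and 5 lower, with a median of -0.31. The higher ones included MMP13, a collagenase, and PHEX, a peptidase of bone, both under the level limit for named genes and named after their values were seen. Both passed the filter on low counts only through TRB cells with T3, so a higher level there was a condition of their being tested. MMP13 had 2, 1 and 0 counts in TRB cells with vehicle and 50, 59 and 39 with T3, at least 23.6-fold higher against a floor of 3 counts per library (adjusted p = 0.000704), and at least 15.9-fold without replicate 2 (adjusted p = 2.27e-05). It had at most 5 counts in any EV library, with T3 or without. PHEX had 1, 1 and 2 counts with vehicle and 21, 32 and 9 with T3, at least 10.4-fold higher (adjusted p = 0.0112). The library that stood apart carried that mean, and without it PHEX was at least 4.97-fold higher (adjusted p = 0.00287). FGFR2, a growth factor receptor, was the third (log2 fold change 0.64, adjusted p = 0.00941, and 0.69 without replicate 2, adjusted p = 0.000268), also named after its values were seen.

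The lower targets were VEGFA, TNFRSF11B, FGFR3 and IHH. VEGFA, the angiogenic growth factor, fell from 327.5 ± 8.65 to 136.7 ± 27.4 CPM (log2 fold change -1.26, SE 0.164, adjusted p = 0.000505), and had -1.05 without replicate 2 (adjusted p = 2.51e-06). In EV cells it was at 258.1 ± 5.87 CPM with vehicle and 140.4 ± 7.36 with T3 (log2 fold change -0.88). That difference had an adjusted p of 0.074 with 12 libraries and passed with 11, at the same log2 fold change (adjusted p = 6.45e-05). TNFRSF11B, the decoy receptor osteoprotegerin, fell from 12.8 ± 1.58 to 4.41 ± 1.74 CPM (log2 fold change -1.55, SE 0.266, adjusted p = 0.00293), and its T3 response differed between the lines by -1.61 (adjusted p = 0.0492). Without replicate 2 these were -1.79 (adjusted p = 2.11e-05) and -1.87 (adjusted p = 0.000626). FGFR3 fell from 88.7 ± 5.32 to 29.2 ± 17.8 CPM (log2 fold change -1.6, adjusted p = 0.0359), with 39.4 ± 0.246 CPM in the T3 group without replicate 2 (log2 fold change -1.12, adjusted p = 0.000421). IHH, a hedgehog ligand also below the level limit, had 44, 39 and 37 counts with vehicle and 8, 0 and 0 with T3 (adjusted p = 0.00329, and 0.000455 without replicate 2). The osteoblast genes SP7 and IBSP stayed at the levels given above.

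Of 26 genes listed as targets of RUNX1 or RUNX3, mostly of blood cells, 8 passed the filter. In TRB cells with T3, 2 were lower and none higher, with a median of -0.7, where 14.7% of all tested genes were called. JAG1, a Notch ligand, was at 86.9 ± 8.47 CPM in EV cells with vehicle, 74.6 ± 1.78 with T3, 107.3 ± 3.21 in TRB cells with vehicle and 31.1 ± 3.02 with T3. It fell by 1.78 on the log2 scale in TRB cells (SE 0.151, adjusted p = 3.11e-05), and its interaction was -1.57 (adjusted p = 0.00346). Without replicate 2 these were -1.73 (adjusted p = 3.77e-07) and -1.51 (adjusted p = 6.39e-05). MYB, a blood cell transcription factor, fell from 24.9 ± 3.75 to 10.2 ± 1.59 CPM (log2 fold change -1.29, SE 0.195, adjusted p = 0.00132), and had -1.37 without replicate 2 (adjusted p = 5.11e-05). In EV cells MYB was at 33.2 ± 3.43 and 23.0 ± 2.19 CPM (log2 fold change -0.53, adjusted p = 0.624), a difference that passed with 11 libraries (-0.52, adjusted p = 0.0495). Without replicate 2 the list had 2 higher and 4 lower genes, the higher ones being the cell cycle inhibitor CDKN1A (1.56) and ZBTB7B (1.03), both outside the naming rule. Since these lists hold 12 and 8 tested genes, nothing particular to either list is read from its median.

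**Figure D4:**
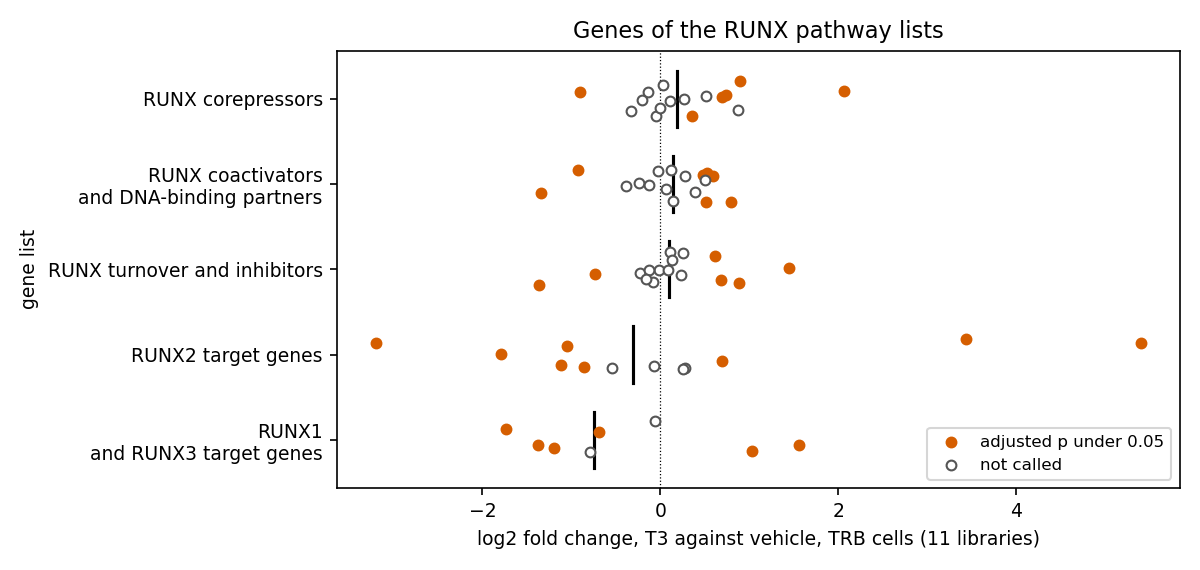
Log2 fold change of each tested list gene for T3 against vehicle in TRB cells, from the fit of 11 libraries (horizontal axis), by list. Filled points passed an adjusted p of 0.05, and the vertical black bar is the list's median. Every list has genes on both sides of 0, and MMP13 (5.41) and PHEX (3.44) lie farthest to the right among RUNX2 targets. These latter genes passed the filter on low counts only through TRB cells with T3.

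Genes that start near the members were read for their own changes. The only tested gene with a start within 500 kb of the RUNX2 start was SUPT3H, which overlaps RUNX2. It stood at 9.53 ± 1.05 CPM in TRB cells with vehicle and 7.22 ± 1.02 with T3, a log2 fold change of -0.4 (adjusted p = 0.243) where RUNX2 had 3.52. Around the start of the RUNX1 model, edgeR and DESeq2 each called 0 of 4 tested genes (CHAF1B, MORC3, SETD4 and CBR1) for T3 in TRB cells, with 0 at an unadjusted p under 0.05. SETD4 passed without replicate 2 (log2 fold change -0.42, adjusted p = 0.0129). That window lies 955.4 kb from the RefSeq start of RUNX1, around which 1 of 6 annotated genes was tested.

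Near RUNX3, itself barely detected, 7 neighbours were tested for T3 in TRB cells, where 14.7% of all tested genes were called. RCAN3 (log2 fold change 1.46, adjusted p = 0.00331) and NCMAP (0.86, adjusted p = 0.0194) were higher. Without replicate 2 these had 1.14 (adjusted p = 5.04e-05) and 0.92 (adjusted p = 0.00282), and CLIC4 was lower (-1.26, adjusted p = 0.0053). In that fit CLIC4 was also lower with T3 in EV cells (-1.15, adjusted p = 0.0216). Near CBFB 28 genes were tested, of which B3GNT9 (1.21) and PDP2 (0.62) were higher and HSD11B2 (-1.86) and CKLF (-0.69) lower, a share near the 14.7% of all tested genes. Without replicate 2, 5 were higher and 3 lower, where 33.3% of all genes passed. No symbol in the files joins a member's name to a hyphen, so no antisense partner by such a name was counted.

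Across the 11 libraries without replicate 2, the log2 CPM of RUNX1 and RUNX2 had a Pearson correlation of -0.902, which was -0.928 with all 12. These points are libraries of 4 groups, so the values restate the group differences. By the same measure over 10094 genes, the genes most like RUNX2 were SLC2A12, a glucose transporter (r = 0.99), ERAP2, an aminopeptidase of antigen processing (0.989), and SERPINB1, a protease inhibitor (0.988). SLC2A12 stood at 9.83 ± 1.19, 15.1 ± 2.79, 6.91 ± 0.306 and 62.7 ± 16.7 CPM in EV vehicle, EV T3, TRB vehicle and TRB T3, the order seen in RUNX2. The genes most like RUNX1 were PABPC4 (0.985), TBL1X (0.983) and LRRC75A-AS1 (0.98). TBL1X, a subunit of nuclear corepressor complexes, stood at 122.9 ± 4.67, 89.2 ± 4.17, 117.5 ± 5.38 and 27.7 ± 2.0 CPM in the same order of groups, and kept r = 0.986 with all 12 libraries, whereas PABPC4 had 0.663. For CBFB they were STYX (0.985), EID1 (0.981) and STK26 (0.981), of which EID1 had 0.9 with all 12 libraries. Like CBFB (60.7 and 63.9 CPM), all of them were lowest in EV T3 replicate 3 and TRB vehicle replicate 1, with STYX at 20.5 and 27.3 CPM. The CBFB correlations thus follow single libraries within groups as well as group differences.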

How the data were processed

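Raw counts per gene symbol of each library were deposited by the authors. Per the submitters' processing notes, the build was hg38 and the tools included CASAVA 1.7, STAR 2.7, HTSeq 0.10 and DESeq2. The annotation and strand setting are not given in the sources used here, so reads of overlapping genes such as SUPT3H and RUNX2 are uncertain. Groups came from the labels. The 5 closing lines for reads of no gene were left out, and 11 library columns of a series table were not used.

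Genes were filtered with filterByExpr (minimum count 10, total 15), scaled by TMM and fitted in edgeR 4.0.16 (R 4.3.3) with a coefficient per group, tested two-sided with Benjamini-Hochberg adjustment over all tested genes at 0.05. The procedure was tested on simulated data. CPM are counts divided by the TMM-scaled library size and multiplied by 1000000. Gene positions, exon lengths and GC content came from GENCODE 29 by symbol. Promoter windows came from RefSeq.

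The members, lists and rules were chosen with earlier results of these data known. Named genes are the members, THRB, in each list up to 3 genes with the largest change among those called for T3 in TRB cells in both fits and averaging at least 1 on the log2 CPM scale, tested genes with a start within 500 kb of a member's, and the 3 genes, averaging at least 3 on that scale, most correlated with each tested member. Other genes are said to be named after their values were seen. Alternatives were DESeq2 1.42.0, other size factors, no filter, the compared groups alone, a replicate block, GC offsets and leaving out each library.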

Additional observations from a re-analysis of the deposited data

Results flagged for a closer look

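The T3 responses of 2 members differed between TRB and EV cells by a test of the difference itself. For RUNX2 the interaction on the log2 scale was 2.62 with 12 libraries and 2.44 without replicate 2 of TRB cells with T3. For RUNX1 it was -1.39 with 12 libraries and -1.34 without that library. CBFB had an interaction of 0.57 (adjusted p = 0.373), and RUNX3 was too low to test.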

How the results depend on the processing

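Across 21 alternatives, T3 in TRB cells gave RUNX2 a log2 fold change of 3.3 to 3.62 and RUNX1 one of -1.86 to -1.63, and all 21 passed the threshold for each gene. The RUNX2 interaction was 2.34 to 2.71 and passed in 20 of 20. The RUNX1 interaction passed in 14 of 20: it missed at -1.37 (adjusted p = 0.13) with no filter on low counts and when any of the 5 libraries named above was left out, with a leave-one-out range of -1.54 to -1.32. For the vector with T3, fitting the compared groups alone gave RUNX1 -1.4 (adjusted p = 0.0915) and RUNX2 1.9 (adjusted p = 0.0634), the only alternative of 21 that missed for either. The cause was not tested.

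RUNX2 for T3 in EV cells passed in 7 of 21: DESeq2 (0.94), the compared groups alone (0.91), GC offsets with 12 libraries (0.93), with 11 (0.96) and with a replicate block (0.91), and without TRB T3 replicate 2 with a replicate block (0.92) or without one (0.92). Its leave-one-out range was 0.82 to 1.04. For the vector without hormone RUNX2 passed when only the groups compared were fitted (-0.69, adjusted p = 0.0197) and with GC offsets on 11 libraries (-0.66, adjusted p = 0.0145). RUNX1 in that comparison changed sign near 0: 0.01 with DESeq2 size factors in edgeR, the compared groups alone, GC offsets and GC offsets with a block, and 0.02 with DESeq2 and with GC offsets on 11 libraries. Its leave-one-out range was -0.09 to 0.15.

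CBFB changed sign without passing the threshold. For T3 in TRB cells it was -0.28 with GC offsets, -0.19 with them on 11 libraries, -0.27 with them and a block, and -0.01 with a block on 11 libraries (leave-one-out -0.13 to 0.3). For the vector with T3 the GC offset values were -0.26, -0.18 and -0.27 in the same order (leave-one-out -0.06 to 0.38), and for the interaction -0.1, -0.02 and -0.1 (leave-one-out 0.29 to 0.7). For T3 in EV cells and for the vector without hormone CBFB kept its sign. GC offsets with 12 libraries moved these values from -0.43 to -0.17 and from -0.36 to -0.16.

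Same-numbered libraries deviated together in some pairs and not in others (r = -0.19 to 0.728 over 18 pairs, 12 of them over 0.1). Every pair of replicates 2 was positive (0.116 to 0.728). The main fit did not take the numbers as pairs, and whether they mark batches was not tested. A library correlated best with its own number in 21 of 36 pairings with another group. A fit with the replicate block changed no call among the members (T3 in TRB cells: RUNX2 3.49, RUNX1 -1.73; interaction: RUNX2 2.61, RUNX1 -1.38), and gave 2278 called genes for T3 in TRB cells and 18 for T3 in EV cells. Genes called for T3 in TRB cells numbered 2128, and 634 to 7024 under the alternatives. The counts were 33 (10 to 2286) for T3 in EV cells, 3 (1 to 1563) for the vector without hormone, 964 (32 to 5265) for the vector with T3 and 374 (136 to 4368) for the interaction. Depth limits RUNX3, and 44 to 112 counts set the precision of RUNX1 in TRB cells with T3.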

Other observations

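Each RUNX gene has a member of the chloride intracellular channel family beside it: CLIC6 lies 69.6 kb from RUNX1, CLIC5 lies 329.7 kb from RUNX2 and CLIC4 lies 55.2 kb from RUNX3, as gaps between RefSeq genes. These genes were looked up together after values were seen, and CLIC5 and CLIC6 lie outside the naming rule. CLIC6 had no counts. CLIC5 stood at 73.3 ± 3.26 CPM in EV cells with vehicle, 174.2 ± 7.72 in EV cells with T3, 59.4 ± 3.21 in TRB cells with vehicle and 281.0 ± 26.9 in TRB cells with T3 (SD, n = 3 each), which is the order of groups seen in RUNX2. It rose with T3 in TRB cells (log2 fold change 2.24, SE 0.141, adjusted p = 5.07e-06 in edgeR) and in EV cells (1.25, SE 0.137, adjusted p = 0.00337). The difference between these responses was 0.99 (adjusted p = 0.0233), against 2.62 for RUNX2. CLIC4 had a log2 fold change of -0.7 in TRB cells (adjusted p = 0.258), and of -1.26 without replicate 2 (adjusted p = 0.0053). In EV cells CLIC4 had -1.17 (adjusted p = 0.577), and -1.15 with 11 libraries (adjusted p = 0.0216). The difference between its responses was 0.47 (adjusted p = 0.601), and -0.11 with 11 libraries (adjusted p = 0.874).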
